A study of Mus musculus with 28 samples.

Results

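The genes of GABA synthesis and of interneuron classes were followed in amygdala RNA from female mice that drank water or ethanol. The 10 genes were taken from a list of symbols, with no threshold on their values. They are *Gad1*, *Gad2*, *Slc32a1*, *Sst*, *Pvalb*, *Vip*, *Cck*, *Calb1*, *Calb2* and *Lhx6*, and all 10 were among the 16266 genes that passed the filter on low counts. The mice were individually housed adult C57BL/6J females (C57BL6/J in the labels) that were 7 weeks old on arrival, and bilateral micropunches holding the basolateral and the central amygdala were taken on day 29. Water mice (n = 10) drank water throughout, Acute mice (n = 9) were offered 20% ethanol on day 28 alone, and Chronic mice (n = 9) were offered 20% ethanol every other day over 28 days, both in a 2-bottle choice. The mice came in 2 batches, with 4 Water, 4 Acute and 3 Chronic mice in the first and 6 Water, 5 Acute and 6 Chronic mice in the second, and batch was a term in the tests that joined them. A micropunch is bulk tissue, so fewer cells of a type and less RNA per cell cannot be told apart. No strain or sex other than this one was studied.

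GABA, the main inhibitory transmitter of the brain, is made from glutamate by the decarboxylases GAD67, encoded by *Gad1*, and GAD65, encoded by *Gad2*, and it is loaded into synaptic vesicles by the transporter encoded by *Slc32a1*. Interneurons fall into classes that are told apart by neuropeptides such as somatostatin, VIP and cholecystokinin, and by calcium-binding proteins such as parvalbumin, calbindin and calretinin. *Lhx6* encodes a homeodomain factor that directs the development of somatostatin and parvalbumin interneurons. In the amygdala, GABA neurons are local interneurons in the basolateral nucleus, whereas in the central nucleus and the intercalated masses they are also the projection neurons. Cholecystokinin is also made by excitatory neurons.

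On the GRCm38 build, 4 of the 10 genes lie on chromosome 2. These are *Gad1* (chr2:70553072-70602014, plus strand), *Gad2* (chr2:22622205-22693874, plus strand), *Slc32a1* (chr2:158610767-158615748, plus strand) and *Lhx6* (chr2:36081953-36105408, minus strand). *Sst* lies at chr16:23889573-23890958 and *Pvalb* at chr15:78191114-78206400, both on the minus strand. *Vip* lies at chr10:5639218-5647617 on the plus strand and *Cck* at chr9:121489824-121495694 on the minus strand. *Calb1* lies at chr4:15881264-15908064 on the plus strand and *Calb2* at chr8:110137502-110168210 on the minus strand. Exons of *Slc32a1* overlap those of the antisense gene *Gm14205*, and exons of *Lhx6* overlap those of *Gm27953* on the same strand, so reads there could be split between the genes.

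RefSeq's promoter table (GRCm38.p6) held an entry for 8 of the 10 genes. The 150 bases before RefSeq's start site are given for the 3 genes of GABA synthesis and loading, whose levels rose and fell together from mouse to mouse, for *Vip* and *Cck*, which did so as a second pair, and for *Sst*, which did not vary with the first group. These start sites can differ from the gene coordinates above. The *Gad1* window lies inside that gene as given, and those of *Gad2* and *Sst* overlap theirs. Capitals mark CGTCA or its reverse complement TGACG, the core of the cyclic AMP response element. The windows are chr2:70561979-70562128 for *Gad1*, chr2:22622177-22622326 for *Gad2*, chr2:158610608-158610757 for *Slc32a1*, chr10:5639068-5639217 for *Vip*, chr9:121495695-121495844 for *Cck* and chr16:23890845-23890994 for *Sst*.
Gad1: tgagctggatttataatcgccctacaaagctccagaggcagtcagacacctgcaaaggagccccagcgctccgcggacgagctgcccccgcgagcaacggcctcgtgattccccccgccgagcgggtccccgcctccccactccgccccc
Gad2: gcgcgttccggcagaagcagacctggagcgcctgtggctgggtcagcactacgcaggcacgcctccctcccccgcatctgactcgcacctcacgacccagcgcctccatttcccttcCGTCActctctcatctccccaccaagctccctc
Slc32a1: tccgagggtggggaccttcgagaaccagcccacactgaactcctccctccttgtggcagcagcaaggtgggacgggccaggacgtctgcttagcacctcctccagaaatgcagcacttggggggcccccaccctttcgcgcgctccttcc
Vip: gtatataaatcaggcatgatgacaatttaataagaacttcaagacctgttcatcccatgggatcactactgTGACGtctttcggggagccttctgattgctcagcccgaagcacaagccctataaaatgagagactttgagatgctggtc
Cck: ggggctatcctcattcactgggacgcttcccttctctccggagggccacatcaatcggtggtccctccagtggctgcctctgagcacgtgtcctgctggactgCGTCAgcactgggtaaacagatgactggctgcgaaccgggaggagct
Sst: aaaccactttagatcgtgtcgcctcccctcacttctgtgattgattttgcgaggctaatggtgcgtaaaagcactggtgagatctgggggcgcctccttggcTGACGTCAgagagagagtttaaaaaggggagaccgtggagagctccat

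This core was present on either strand in the windows of *Gad2*, *Vip*, *Cck* and *Sst*, and in 13.3% of all 32851 windows of the same length. The full palindrome TGACGTCA, which contains the core in both directions, was present in the window of *Sst* alone among the 8 genes and in 1.36% of all windows. Its first base lay 48 bases before the start site. TATAAA was found on either strand in the windows of *Gad1* and *Vip* and in 7.57% of all windows, and the homeodomain core TAATTA was found in none of the 8 genes' windows and in 2.73% of all windows. Of the 3 genes of GABA synthesis and loading, *Gad2* alone held the core, whereas *Vip* and *Cck* both held it.

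Each library held 20004380 to 22569562 counts, and the libraries of the 3 groups overlapped in depth. The markers of both punched nuclei were present in every mouse. Summed levels of 9 markers of central amygdala and intercalated neurons ran from 330.4 to 617.5 CPM (the count scaled by the normalised size of the library) and those of 8 markers of pallial excitatory neurons from 1327 to 2398 CPM. Of the markers of neighbouring tissue, 5 thalamus markers ran from 75.5 to 137.4 CPM, 8 striatal markers from 411.3 to 1626 CPM and 5 choroid plexus markers from 6.28 to 4183 CPM. None of the cell type markers tested was at 0 in any mouse.

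The 10 genes spanned a 74.7-fold range in level per length of exon. The length is that of all annotated exons, so the order below depends on the annotation. By mean normalised count, not divided by length, *Gad1* (9086) was above *Sst* (5482), and *Pvalb* (167.7) was below *Vip* (346.4). *Sst*, which encodes the peptide somatostatin, was the highest at 367.3 ± 30.1 CPM per kb (SD, n = 28), and it was above *Cck* in 28 of 28 mice. *Cck* followed at 164.9 ± 36.4 CPM per kb. *Gad2*, *Slc32a1* and *Gad1* came next at 72.8 ± 15.97, 67.2 ± 14.6 and 57.5 ± 7.42 CPM per kb. The order of *Gad2* and *Slc32a1* did not hold across mice, since *Gad2* was the higher in 18 of 28 and the difference of their means was smaller than either SD. *Calb1*, encoding calbindin, was at 36.6 ± 2.61 and *Calb2*, encoding calretinin, at 17.9 ± 5.53 CPM per kb. *Pvalb*, *Lhx6* and *Vip* were the lowest at 7.78 ± 2.44, 5.71 ± 0.572 and 4.92 ± 0.881 CPM per kb, and each neighbouring pair among them kept its order in 20 of 28 mice. *Cck* differed between the batches, with a mean 1.46-fold higher in the second, and *Pvalb* had a mean in the second batch that was 0.761 times that in the first.

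**Figure D1:**
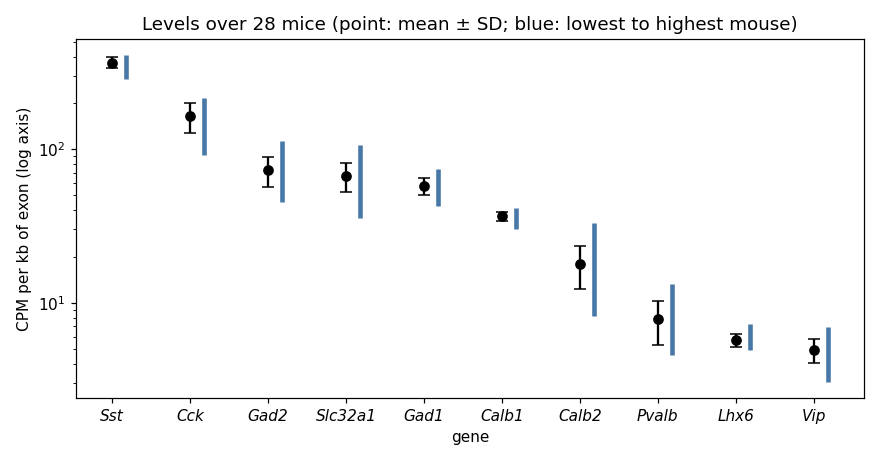
Level of each gene in CPM per kb of exon on a log axis, over 28 mice; points are means with SD and blue lines run from the lowest to the highest mouse. *Sst* stood above all other genes at 367.3 CPM per kb, and *Vip* was the lowest at 4.92.

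The genes also differed in how much they varied between mice of the same group and batch. The residual SD on the log2 scale was 0.42 for *Calb2*, 0.40 for *Pvalb*, 0.31 for *Gad2*, 0.30 for *Slc32a1* and 0.27 for *Vip*, against a median of 0.14 over all genes tested. *Cck* was at 0.22, *Gad1* at 0.17 and *Lhx6* at 0.14. *Sst* at 0.10 and *Calb1* at 0.083 varied less than the median gene. The counts behind these values ran from 96 counts of *Pvalb* in its lowest library to 15283 counts of *Gad2* in its highest.

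The first comparison asked whether a single day of ethanol changed these genes. None of the 10 genes was called between Acute and Water mice by edgeR's quasi-likelihood test at an adjusted p of 0.05 (background 0%), and none was called by DESeq2 (background 0.0492%). At an unadjusted p under 0.05, 1 of the 10 was found in edgeR (background 9.52%) and 1 in DESeq2 (background 9.39%), and in edgeR that gene was *Gad1*. The 9 Acute mice ran from 8343 to 11697 normalised counts of *Gad1* with a median of 9424, and the 10 Water mice from 6770 to 10609 with a median of 8574. The groups overlapped, although 8 of 9 Acute mice lay above the mean of the Water mice of their batch. The mean was 9811 ± 1144 (SD, n = 9) in Acute and 8680 ± 1057 (SD, n = 10) in Water mice. This was a log2 fold change of 0.18 with an SE of 0.075 and a 95% interval of 0.024 to 0.33. In edgeR, p was 0.0254 and the adjusted p was 0.485, and the exact two-sided permutation test within batches gave p = 0.0389. The difference was 0.30 in the first batch alone and 0.089 in the second batch alone, and p rose above 0.05 when any of Acute replicates 4 and 33 or Water replicates 42 and 43 was left out (0.0526 to 0.0737 in edgeR) and was 0.307 in the second batch alone.

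The other genes of GABA synthesis and loading also had estimates above 0 and did not pass the test. *Gad2* ran from 7080 to 13718 normalised counts in Acute mice with a median of 8861, and from 5521 to 11075 in Water mice with a median of 8451. This gave a log2 fold change of 0.19 ± 0.13 (SE), with a 95% interval of -0.077 to 0.46 and an adjusted p of 0.652 in edgeR, and it was 0.12 without Acute replicate 4. *Slc32a1* ran from 3324 to 6211 in Acute mice with a median of 4038, and from 2056 to 4724 in Water mice with a median of 3697. The fold change of *Slc32a1* was 0.25 ± 0.13 (SE) on the log2 scale, with a 95% interval of -0.012 to 0.51 and an adjusted p of 0.543 in edgeR. For both genes the ranges overlapped widely, with the lowest mice in the Water group and the highest in the Acute group. The first batch alone gave 0.38 for *Gad2* and 0.43 for *Slc32a1*, and the second batch alone gave 0.055 and 0.12. The difference between batches was itself tested for all 10 genes and 3 comparisons, and its lowest adjusted p was 0.814 with 0 of 30 at an unadjusted p under 0.05.

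Markers of central amygdala and intercalated neurons moved with these 3 genes. Summed over the 9 markers, Acute mice ran from 400.2 to 617.5 CPM with a median of 502.1, Water mice from 330.4 to 541.4 with a median of 453.5, and Chronic mice from 372.4 to 554.6 with a median of 442.8. None of the 9 markers was called by edgeR in any comparison. *Nts*, encoding neurotensin, had the lowest adjusted p of the 9, at 0.194 in edgeR for Acute against Water (log2 fold change 0.55). The paper, which used ComBat-seq and DESeq2, lists *Nts* as differentially expressed in its Acute group, with qPCR in the same direction. Against Water, 8 of the 9 had higher estimates in Acute mice, 2 of them at an unadjusted p under 0.05 in edgeR (background 5.07%). The part of these neurons in the *Gad1*, *Gad2* and *Slc32a1* values was not tested.

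Among the peptides, *Sst* ran from 5100 to 6123 normalised counts in Acute mice with a median of 5501 and from 4549 to 5856 in Water mice with a median of 5297. In 8 of 9 Acute mice the count lay above the mean of the Water mice of their batch, and the ranges overlapped. Its log2 fold change was 0.068 with a 95% interval of -0.024 to 0.16 and an adjusted p of 0.642 in edgeR. *Vip* ran from 215.4 to 417.1 in Acute mice with a median of 349.0 and from 265.3 to 488.7 in Water mice with a median of 342.3, and its log2 fold change of -0.077 had an interval of -0.31 to 0.16. *Cck* ran from 2495 to 5720 in Acute mice with a median of 4184 and from 2775 to 5607 in Water mice with a median of 4235. On the log2 scale its change was 0.072 with an interval of -0.11 to 0.26. For these 2 peptides the spread within a group was larger than the difference between groups.

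*Pvalb*, encoding the calcium-binding protein of fast-spiking interneurons, ran from 102.5 to 287.2 normalised counts in Acute mice with a median of 175.0 and from 97.8 to 207.5 in Water mice with a median of 148.1. Its log2 fold change of 0.26 had an interval of -0.090 to 0.61, which included no difference and a 1.5-fold rise. The value was 0.13 without Acute replicate 4, 0.58 in the first batch alone and 0.015 in the second alone. *Calb1* ran from 3054 to 3998 in Acute mice with a median of 3812 and from 3433 to 4127 in Water mice with a median of 3709. Its interval of -0.12 to 0.032 was the narrowest of the 10. *Calb2* ran from 541.1 to 652.6 in Acute mice with a median of 590.5, and from 296.7 to 1202 in Water mice with a median of 560.6. All 9 Acute mice thus lay inside the Water range pooled over the batches, although in the first batch the lowest Acute mouse (557.5) was below the lowest Water mouse (561.6). The log2 fold change of *Calb2* was -0.11 with an interval of -0.48 to 0.25. It was -0.46 in the first batch alone (p = 0.0358, adjusted p = 0.672 in edgeR) and 0.16 in the second alone. *Lhx6* ran from 492.4 to 709.1 in Acute mice with a median of 569.1 and from 489.7 to 620.6 in Water mice with a median of 546.6, with a log2 fold change of 0.059 and an interval of -0.069 to 0.19. For 5 of the 10 genes the 95% interval lay within a 25% change either way.

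**Figure D2:**
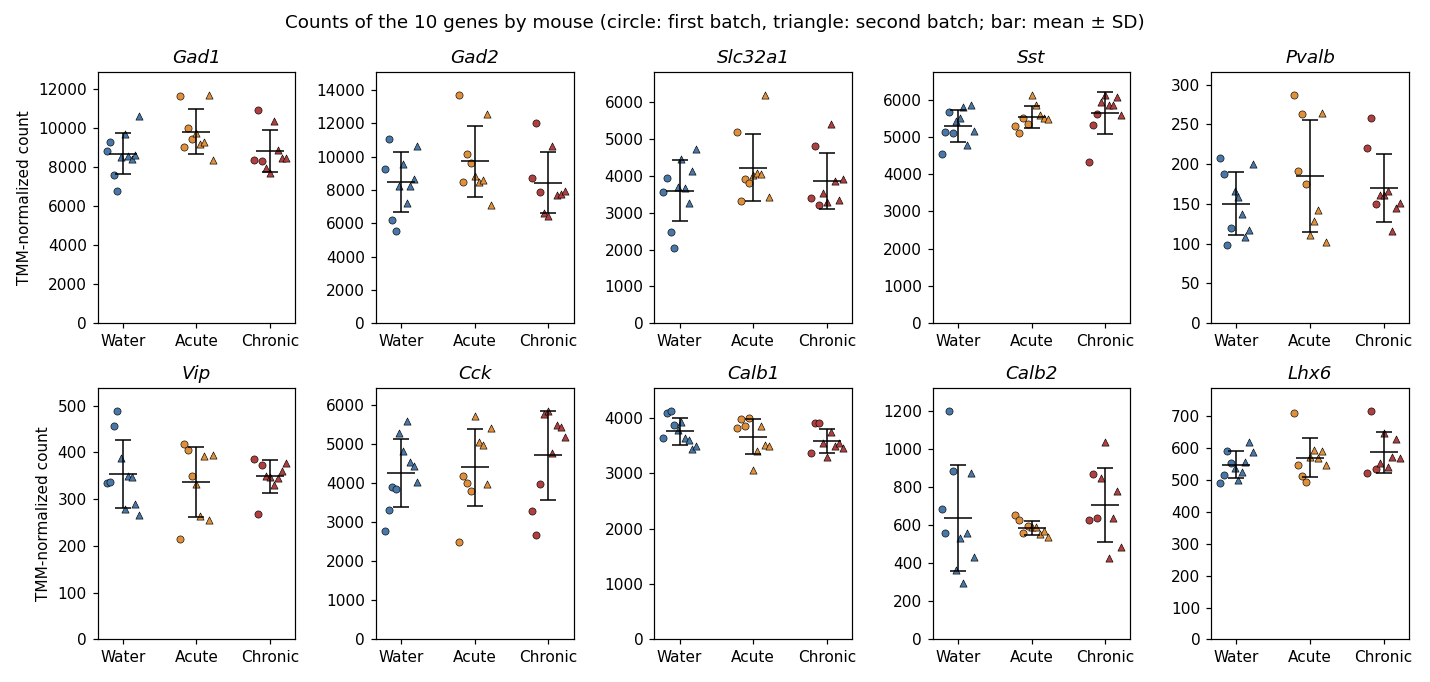
TMM-normalised counts of the 10 genes in each mouse by group; circles are the first batch, triangles the second, and bars give the mean and SD of the 10 Water, 9 Acute and 9 Chronic mice. The groups overlapped for all 10 genes, and the *Calb2* values of the Acute mice sat between 541.1 and 652.6 inside the wider Water range pooled over both batches.

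The second comparison asked whether 4 weeks of intermittent ethanol changed the same genes. None of the 10 was called between Chronic and Water mice by edgeR (background 0.0184%) or DESeq2 (background 0.221%), and 0 of 10 reached an unadjusted p under 0.05 in either (background 10.5% in edgeR and 10.2% in DESeq2). *Gad1* ran from 7674 to 10927 normalised counts in Chronic mice with a median of 8437, and its mean of 8811 ± 1097 (SD, n = 9) was close to that of Water mice. The log2 fold change was 0.022 with a 95% interval of -0.13 to 0.18. *Gad2* ran from 6457 to 12036 in Chronic mice with a median of 7895, and its log2 fold change was -0.0062 with an interval of -0.27 to 0.26. *Slc32a1* ran from 3224 to 5408 with a median of 3525, and its log2 fold change was 0.10 with an interval of -0.16 to 0.36, and 0.029 without Chronic replicate 38. For these 3 genes the batches differed in sign, since the first batch alone gave 0.18, 0.25 and 0.34 and the second batch alone gave -0.072, -0.16 and -0.037.

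*Sst* ran from 4314 to 6132 normalised counts in Chronic mice with a median of 5854, and 8 of 9 lay above the mean of the Water mice of their batch. The estimate was 0.078 ± 0.045 (SE) on the log2 scale, with a 95% interval of -0.014 to 0.17 and an adjusted p of 0.559 in edgeR. The second batch alone gave 0.12 with p = 0.0133 and an adjusted p of 0.265 in edgeR, and the first batch alone gave -0.0084. *Vip* ran from 269.3 to 386.0 in Chronic mice with a median of 350.5, and 6 of 9 lay above the Water mean of their batch, all of them in the second batch, with a log2 fold change of -0.0058. *Cck* ran from 2673 to 5852 with a median of 5180, and its log2 fold change of 0.095 had an interval of -0.091 to 0.28. No peptide gene was separated from Water by its range.

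*Pvalb* ran from 115.6 to 257.6 normalised counts in Chronic mice with a median of 160.9, with a log2 fold change of 0.19 and an interval of -0.17 to 0.54. *Calb1* ran from 3304 to 3904 with a median of 3549, and 8 of 9 Chronic mice lay below the mean of the Water mice of their batch. This was a log2 fold change of -0.060 with an interval of -0.14 to 0.017 and an adjusted p of 0.597 in edgeR. *Calb2* ran from 425.9 to 1038 with a median of 637.1. The sign of its change turned with the batch, at -0.23 in the first alone and 0.46 in the second alone. Summed striatal markers, which *Calb2* ran opposite to across mice, were at 485.9 to 1071 CPM in Chronic mice with a median of 694.7 and at 411.3 to 1626 in Water mice with a median of 1045. All 8 had estimates below 0 (median -0.35), 2 of them at an unadjusted p under 0.05 in edgeR (background 5.65%). None was called by edgeR, and their part in the *Calb2* values was not tested. *Lhx6* ran from 521.4 to 716.9 with a median of 570.4, and its log2 fold change was 0.099 with an interval of -0.029 to 0.23, and 0.050 without Chronic replicate 38. For 7 of the 10 genes the interval lay within a 25% change either way, and for 3 of the 10 the sign was the same in both batches, against 8 of 10 for Acute and Water mice.

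Chronic and Acute mice were then compared directly. None of the 10 genes was called by edgeR or DESeq2 (background 0% in both), and 0 of 10 reached an unadjusted p under 0.05 in edgeR (background 4.44%) and 1 of 10 in DESeq2 (background 4.26%). *Gad1* was closest to the threshold, with a log2 fold change of -0.16, a 95% interval of -0.31 to 0.0023, p = 0.0533 and an adjusted p of 0.998 in edgeR. In 7 of 9 Chronic mice its level was below the mean of the Acute mice of their batch. *Gad2* at -0.20 and *Slc32a1* at -0.15 were also below 0, with intervals of -0.47 to 0.078 and -0.42 to 0.12, and they were -0.13 and -0.068 without Acute replicate 4. All 9 central amygdala and intercalated markers also had estimates below 0 (median -0.17), 2 of them at an unadjusted p under 0.05 in edgeR (background 2.5%). The 8 striatal markers were likewise all below 0 (median -0.37), with none at that p, against a median of -0.00089 over all genes tested. None of these markers was called, and their part in the values of the 3 genes was not tested. *Calb2* had the largest difference at 0.30, with an interval of -0.072 to 0.67. The comparisons share mice, so the Acute values enter both this one and the one with Water.

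**Figure D3:**
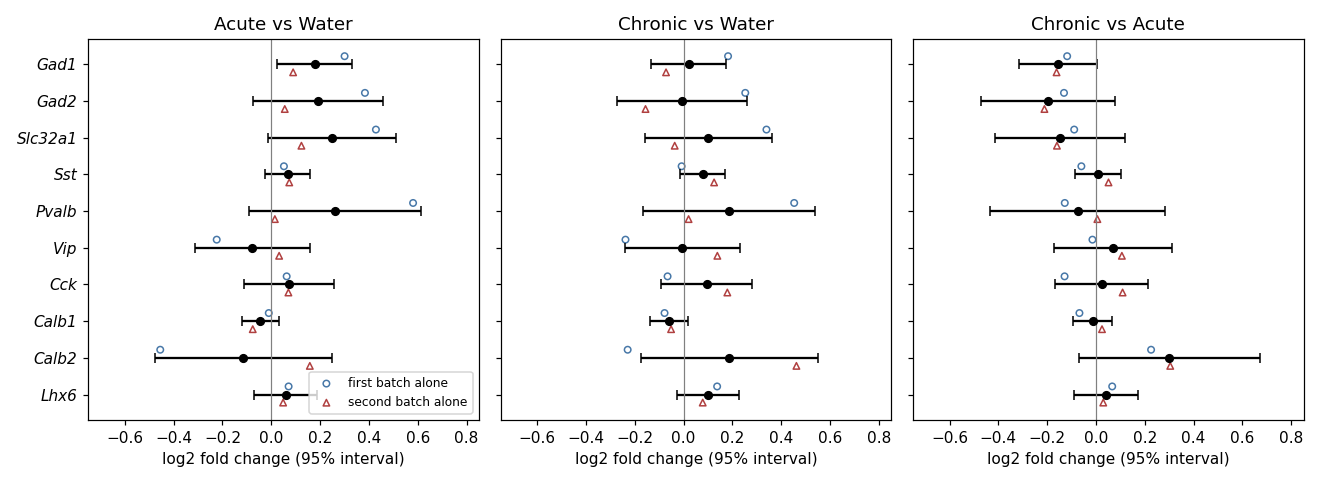
Log2 fold change of each gene in the 3 comparisons; black points with bars are the estimates from 28 mice with 95% intervals, open circles the first batch alone and open triangles the second. The interval of *Gad1* between Acute and Water mice (0.024 to 0.33) was the one interval that did not include 0.

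The balance of the mRNAs of the GABA-synthesising enzymes was measured as the log2 ratio of *Gad1* to *Gad2* counts within a library, which needs no normalisation for library size. It ran from -0.26 to 0.29 with a median of 0.022 in Water mice, from -0.24 to 0.24 with a median of 0.096 in Acute mice, and from -0.14 to 0.26 with a median of 0.088 in Chronic mice. The groups overlapped over most of their range. With batch taken into account, the difference from Water was -0.022 in Acute mice (exact permutation p = 0.773, adjusted over the 3 comparisons 0.783) and 0.020 in Chronic mice (exact permutation p = 0.783, adjusted 0.783). Chronic minus Acute was 0.031 (exact permutation p = 0.578, adjusted 0.783). The ratio was not adjusted for the cell types in a punch. With batch means removed, it was highest in Water replicate 43 (0.30) and lowest in Water replicate 41 (-0.25). The summed central amygdala markers of these mice were at -0.51 and 0.21 on the same log2 scale, and their part in the ratio was not tested.

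Genes around the 10 were read from 7 lists holding 57 genes, of which 56 were tested. They covered GABA handling, interneuron transcription factors, other markers of the somatostatin, parvalbumin, Vip and Cck classes, neurogliaform cells and perineuronal nets. None of the 56 was called in any of the 3 comparisons by edgeR. At an unadjusted p under 0.05, 4 were higher (background 5.07%) and 1 lower (background 4.45%) in Acute than in Water mice. Likewise 4 were higher (background 4.81%) and 0 lower (background 5.65%) in Chronic than in Water mice, and 1 was higher (background 1.95%) and 1 lower (background 2.5%) in Chronic than in Acute mice. Together these shares were 8.93%, 7.14% and 3.57% of the 56 genes, against backgrounds of 9.52%, 10.5% and 4.44%.

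Among the 10 GABA handling genes tested, *Glul*, encoding the glutamine synthetase of astrocytes, had log2 fold changes of 0.051 in Acute and -0.017 in Chronic mice against Water. The list's median log2 fold change was 0.048 in Acute and 0.0087 in Chronic mice, against 0.0011 and 0.0022 over all genes tested. The smallest p among the 18 transcription factors belonged to *Npas1*, with log2 fold changes of 0.072 in Acute and 0.19 in Chronic mice (adjusted p = 0.341 in edgeR for Chronic), and to *Adarb2*, an RNA-binding gene kept in that list as a marker of caudally derived interneurons, with 0.15 and 0.22. The medians of that list were 0.046 and 0.062.

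The other class markers stayed on the same scale. In the 6 somatostatin class genes, *Elfn1*, a synaptic adhesion gene, had log2 fold changes of 0.067 in Acute and 0.17 in Chronic mice, and *Chodl*, a marker of long-range somatostatin neurons, had 0.17 and 0.056. In the 6 parvalbumin class genes, *Kcnc2*, encoding a potassium channel of fast-spiking cells, had 0.091 and 0.11, and *Kcnc1*, encoding a related channel, had -0.0052 and 0.048. In the 5 Vip and Cck class genes, *Sncg* had 0.25 and 0.097, and *Slc17a8*, encoding a vesicular glutamate transporter, had 0.072 and -0.17. In the 5 neurogliaform genes, *Cxcl14* had 0.088 and 0.019, and *Lamp5* had 0.10 and -0.013. In the 6 perineuronal net genes, *Bcan*, encoding brevican, had 0.093 and 0.071, and *Tnr*, encoding tenascin-R, had -0.14 and -0.11. No adjusted p of these 10 genes in the comparisons with Water was under 0.427 in edgeR.

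What the 10 genes did show was a pattern across mice. With batch means removed, levels of the 45 pairs were correlated over the 28 mice, and 16 pairs had an adjusted p under 0.05 over the 45 in permutation tests of 100000 resamples, 8 positive and 8 negative. All 16 had the same sign in each batch alone, and 14 also passed with Spearman's rho. The share of all gene pairs that would pass was not computed, so the count was not shown to be particular to these genes. By r with *Gad1*, *Gad2* ranked 1 among the other 16265 genes and *Pvalb* ranked 254. The values of one mouse share its library and its dissection. The mice did not fall into separate clusters in the plots of these values.

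*Gad1*, *Gad2* and *Slc32a1* formed one tight group. Pearson's r was 0.957 for *Gad1* and *Gad2* (rho 0.923), 0.958 for *Gad2* and *Slc32a1* (rho 0.943) and 0.953 for *Gad1* and *Slc32a1* (rho 0.912), each with a permutation p of 1e-05 for both measures, the smallest that the resamples could give, and with an adjusted p of 6.43e-05 for r and 0.000150 for rho. Without the 2 mice farthest from the median, r was 0.939, 0.936 and 0.931, and the lowest value in a single batch was 0.911. *Pvalb* joined them with r of 0.721 to 0.780 (rho 0.558 to 0.648), and its highest value was with *Slc32a1* (permutation p = 1e-05, adjusted 6.43e-05). In single batches these 3 correlations of *Pvalb* ran from 0.549 to 0.886.

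*Vip* and *Cck* formed a second group and ran opposite to the first. Their r was 0.776 (rho 0.634, permutation p = 1e-05 and 0.000520, adjusted 6.43e-05 and 0.00234), and it was 0.664 without the 2 farthest mice. *Vip* had r of -0.773, -0.793 and -0.795 with *Gad1*, *Gad2* and *Slc32a1*, and *Cck* had -0.641, -0.732 and -0.663. These 6 had rho of -0.751 to -0.522, adjusted permutation p of 6.43e-05 to 0.00197 for r, and r of -0.749 to -0.482 without the 2 farthest mice. *Pvalb* had r of -0.596 with *Vip* and -0.538 with *Cck*, with adjusted permutation p of 0.00607 and 0.0181, and these 2 pairs did not pass with rho (adjusted permutation p of 0.0947 and 0.0998). *Calb2* and *Lhx6* gave the one other pair, with r of 0.506 (rho 0.613, permutation p = 0.00261 and 0.000490, adjusted 0.00783 and 0.00234), which was 0.429 without the 2 farthest mice.

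*Sst* and *Calb1* did not follow the GABA synthesis genes. *Sst* had r of -0.024 with *Gad1*, -0.16 with *Gad2* and -0.027 with *Slc32a1*, none of which passed the permutation test, and *Calb1* had r of 0.022 to 0.044 with the same genes. With *Cck*, *Sst* had r of 0.461 (adjusted permutation p = 0.0523) and rho of 0.562 (adjusted permutation p = 0.00879), and r was 0.505 without the 2 farthest mice, 0.349 in the first batch alone and 0.606 in the second alone. For *Lhx6*, r with the 3 genes ran from 0.195 to 0.243, and with *Vip* it was -0.442 (adjusted permutation p = 0.104), and it was 0.0069 without the 2 farthest mice.

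**Figure D4:**
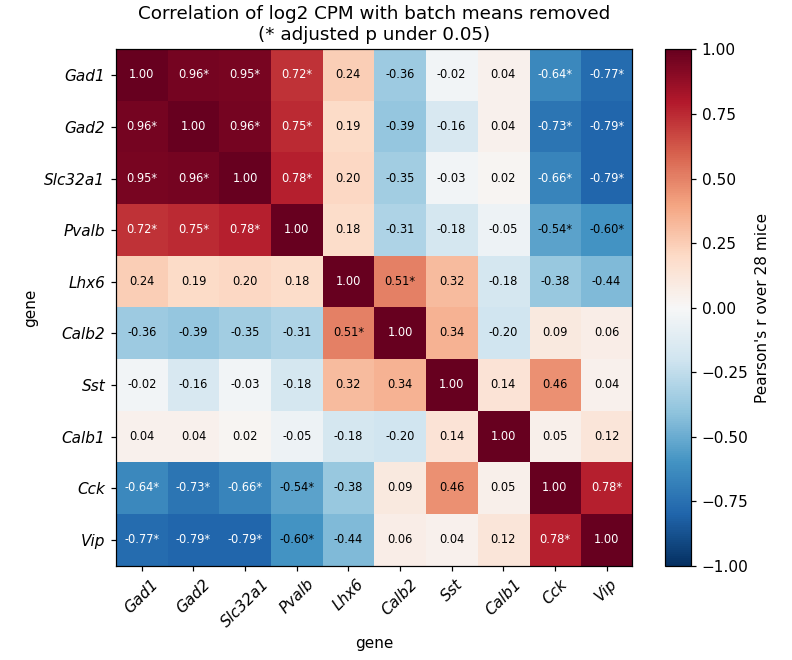
Pearson's r for every pair of the 10 genes over 28 mice, on log2 CPM with batch means removed; stars mark an adjusted permutation p under 0.05. *Gad1*, *Gad2*, *Slc32a1* and *Pvalb* formed a positive block that ran opposite to *Cck* and *Vip*, and no pair of *Sst* or *Calb1* is starred.

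The same levels were set beside the summed markers of 8 cell types and neighbouring tissues, none of which contains any of the 10 genes. These are plain sums of CPM, so the markers with the highest counts weigh most. In the pallial list, *Slc17a7* had a median of 26887.5 counts and *Lmo3*, the next, had 7483. Of the 80 pairs, 31 had an adjusted permutation p under 0.05, 19 positive and 12 negative. The share over all genes tested was not computed. *Gad1*, *Gad2* and *Slc32a1* followed the central amygdala and intercalated markers with r of 0.934, 0.953 and 0.935 (rho 0.907, 0.921 and 0.911, each permutation p = 1e-05), and r was 0.907, 0.931 and 0.895 without the 2 farthest mice. They ran opposite to the pallial excitatory markers with r of -0.811, -0.886 and -0.836, and rose with the oligodendrocyte markers with r of 0.821, 0.855 and 0.845, each with an adjusted permutation p of 6.15e-05. Spearman's rho was -0.717, -0.861 and -0.776 with the pallial and 0.667, 0.737 and 0.695 with the oligodendrocyte markers. With the striatal markers r was 0.569, 0.625 and 0.605, with adjusted permutation p of 0.00806, 0.00305 and 0.00385. All of these had the same sign within each batch.

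*Cck* and *Vip* had the reverse profile for the central amygdala, pallial and oligodendrocyte markers. With the striatal markers their r of -0.415 and -0.344 did not pass (adjusted permutation p of 0.0811 and 0.161). *Cck* followed the pallial excitatory markers with r of 0.910 (rho 0.882, permutation p = 1e-05 for both, adjusted 6.15e-05 and 0.000114), which was 0.868 without the 2 farthest mice, 0.923 among mice of the first batch and 0.889 among those of the second. *Vip* followed the same markers with r of 0.836 (rho 0.728), with 0.958 among mice of the first batch and 0.633 among those of the second. *Pvalb* was most closely tied to the oligodendrocyte markers, with r of 0.796 (rho 0.770, permutation p = 1e-05 for both). *Calb2* fell where the striatal markers rose, with r of -0.777 (rho -0.718), and rose with 5 thalamus markers, with r of 0.612 (rho 0.60). It also ran opposite to 5 microglia markers, with r of -0.733 (rho -0.689, adjusted permutation p = 0.000200). With the microglia markers, r was 0.491 for *Gad1*, 0.451 for *Gad2*, 0.470 for *Slc32a1* and 0.461 for *Pvalb*, each with an adjusted permutation p under 0.05. By rho, *Gad2* did not pass with these markers (rho 0.381, adjusted permutation p = 0.0767). *Sst* had one pair that passed, with the striatal markers at r of -0.472 (rho -0.523, adjusted permutation p of 0.0395 and 0.0170). *Calb1* and *Lhx6* had none by r, and *Lhx6* passed by rho with the striatal markers (rho -0.542, adjusted permutation p = 0.0118, against 0.0894 for r of -0.407).

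**Figure D5:**
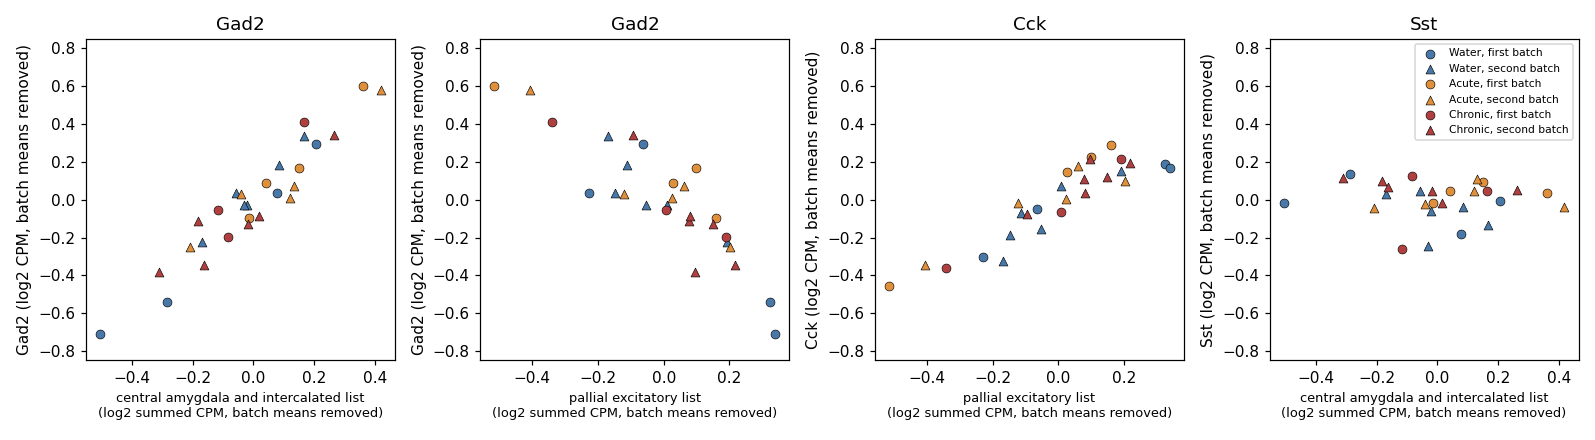
Levels of *Gad2*, *Cck* and *Sst* in each of 28 mice against the summed markers of central amygdala and intercalated neurons or of pallial excitatory neurons, all as log2 CPM with batch means removed; colours are groups, circles the first batch and triangles the second. *Gad2* rose with the central amygdala markers (r = 0.953) and fell with the pallial markers (r = -0.886), *Cck* rose with the pallial markers (r = 0.910), and *Sst* had no correlation with the central amygdala markers that passed the test.

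Among the other 16265 genes tested, those most like each gene over the 28 mice were named by Pearson's r, as a description. The genes closest to *Gad1* were *Gad2* (0.957), *Slc32a1* (0.953) and *Ap1s2* (0.944), and those closest to *Slc32a1* were *Gad2* (0.958), *Gad1* (0.953) and *Ap1s2* (0.950). *Gad2* was closest to *Klhl13* (0.970), *Ap1s2* (0.968) and *Chn2* (0.966). *Cck* was closest to *Stx1a* (0.918), *Slc17a7* (0.914), which encodes the vesicular glutamate transporter VGLUT1 and is in the pallial list, and *Nsmf* (0.898). *Vip* was closest to *Olfm1* (0.867), *Camk2a* (0.860), a kinase gene of excitatory neurons, and *Ccdc3* (0.856). *Pvalb* was closest to *Syt2* (0.862), the synaptotagmin of fast-spiking terminals, *Apod* (0.845) and *Sgpp2* (0.841).

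The remaining genes had other partners. *Sst* was closest to *Pgp* (0.838), *Rab3a* (0.837), a synaptic vesicle gene, and *Sqstm1* (0.819). *Calb2* was closest to *Pcdh8* (0.885), *Ttc28* (0.853) and *Efnb3* (0.851). *Lhx6* was closest to *Agt* (0.817), which encodes angiotensinogen, *Sparc* (0.792) and *Wdr6* (0.776). *Calb1* had the weakest partners, *Tmem116* (0.680), *Lpl* (0.661) and *Tmem184c* (0.636).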

How the data were processed

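RNA-seq of 28 amygdala samples was analysed, and each mouse's group and batch came from its label and the methods. The authors assessed reads with FastQC 0.11.8, quantified them with Salmon 0.14.1 on a GRCm38 transcriptome with non-coding RNAs, and summarised them by gene with tximport (GENCODE M21). They deposited whole-number estimated counts for each batch, neither normalised nor adjusted for batch. Both tables were merged by unversioned Ensembl identifier (49477 shared genes), and a mean of 10 or more counts was required. Tests used edgeR 4.0.16 in R 4.3.3, as the quasi-likelihood test with TMM factors, batch and group as terms, all 28 mice and Benjamini-Hochberg adjustment at 0.05. DESeq2 1.42.0 with batch, ComBat-seq (sva 3.50.0) followed by DESeq2 as in the study's methods, and voom (limma 3.58.1) were alternatives. Exact tests enumerated the regroupings of mice within batches (32340 against Water, 16170 for Chronic and Acute). Correlations used log2 CPM (prior count 2) with batch means removed and 100000 permutations within batches. Normalised counts are TMM-scaled counts, and levels per kb divide CPM by the bases of all annotated exons. The tests were tested on simulated data. The members and lists were chosen with earlier results of these data known. All members were named, with 2 genes of the smallest p against Water from each list and the 3 genes most like each member. One gene that this rule names is not reported here. *Opalin* and *Slc6a12* were listed but not tested. Libraries of a group and batch were checked for duplicates, and none of 55 pairs agreed within sampling noise. Replicate numbers shared by groups of the second batch did not pair the mice. Their deviations had a median correlation of -0.0080 over 16 pairs, and 4 were over 0.1. Every library held at least 20004380 counts.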

Additional observations from a re-analysis of the deposited data

Results flagged for a closer look

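In 3 of 33 sets of mice of one group, a single mouse stood apart from the rest by Dixon's test, which chance gives in about 1 of 20 sets. *Sst* was low in Chronic replicate 37, at -0.26 on the log2 scale with batch means removed against -0.018 in the next mouse, a gap of 0.628 of the group's range. *Vip* was low in Chronic replicate 38, at -0.41 against 0.0012 in the next mouse, a gap of 0.682 of the range. *Lhx6* was high in Acute replicate 33, at 0.35 against 0.058, a gap of 0.549 of the range. Without Chronic replicate 37 the log2 fold change of *Sst* between Chronic and Water mice was 0.12 with p = 0.00514 and an adjusted p of 0.204 in edgeR, and it was 0.078 with all mice. Without Acute replicate 33 the log2 fold change of *Lhx6* between Acute and Water mice was 0.0088, and it was 0.059 with all mice.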

How the results depend on the processing

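The count of 0 of 10 genes called held in the 3 comparisons under every alternative run, which were another normalisation, 2 filters, DESeq2, ComBat-seq with DESeq2, voom, the compared groups alone, each batch alone, the replicate block and leaving out each mouse. The lowest adjusted p was 0.306 for Acute, 0.204 for Chronic and 0.817 for Chronic against Acute. The unadjusted call of *Gad1* in Acute mice was lost in some settings. With voom the log2 fold change was 0.13 with p = 0.0653 in limma, and the second batch alone gave 0.089 with p = 0.307 in edgeR. Of 28 fits with a mouse left out, 24 kept p under 0.05, and p was highest without Acute replicate 4 (log2 fold change 0.14, p = 0.0737 in edgeR), where the sign held. The number of correlated pairs was 16, and it was 16 with group means removed too, 12 with the first batch alone and 14 with the second alone. Over all genes, DESeq2 called 8 in Acute and 36 in Chronic mice against Water, ComBat-seq with DESeq2 called 30 and 88, and edgeR called 0 and 3.

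Signs of small differences turned in some settings. In the cases listed here neither value passed the test, and the cause was not tested. For Acute against Water, the second batch alone gave 0.032 for *Vip*, 0.16 for *Calb2* and 0.046 for the *Gad1* to *Gad2* ratio, and voom gave 0.018 for *Calb2*. For Chronic against Water, the first batch alone gave 0.25 for *Gad2*, -0.0084 for *Sst*, -0.066 for *Cck*, -0.23 for *Calb2* and -0.11 for the ratio, and the second batch alone gave -0.072 for *Gad1*, -0.037 for *Slc32a1* and 0.14 for *Vip*. Voom gave -0.016 for *Gad1* and 0.052 for *Vip*, ComBat-seq with DESeq2 gave 0.026 for *Vip*, and no filter gave 0.00015 for *Vip*. For Chronic against Acute, the first batch alone gave -0.060 for *Sst*, -0.015 for *Vip* and -0.13 for *Cck*, the second batch alone gave 0.0055 for *Pvalb* and 0.024 for *Calb1*, and voom gave -0.012 for *Sst*, 0.0083 for *Pvalb* and -0.017 for *Cck*.

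Leaving out each mouse in turn, the signs that turned had these ranges. For Acute against Water, *Calb2* ran from -0.19 to 0.011 and the ratio from -0.057 to 0.014. For Chronic against Water, *Gad1* ran from -0.028 to 0.059, *Gad2* from -0.080 to 0.043, *Vip* from -0.043 to 0.055 and the ratio from -0.0097 to 0.052. For Chronic against Acute, *Sst* ran from -0.0039 to 0.049, *Pvalb* from -0.14 to 0.055, *Cck* from -0.022 to 0.080, *Calb1* from -0.041 to 0.0097 and *Lhx6* from -0.0090 to 0.089. Other values kept their sign but moved by over 1.5 times without 1 mouse, and each is given for the mouse that moved it most. For Acute against Water these were *Vip* (-0.0054) and *Lhx6* (0.0088) without Acute replicate 33, *Gad2* (0.12) and *Pvalb* (0.13) without Acute replicate 4, *Cck* (0.037) without Acute replicate 34 and *Calb1* (-0.020) without Acute replicate 1. For Chronic against Water they were *Slc32a1* (0.029), *Lhx6* (0.050) and *Cck* (0.15) without Chronic replicate 38, *Calb1* (-0.037) without Chronic replicate 37, *Calb2* (0.086) without Chronic replicate 2 and *Pvalb* (0.11) without Water replicate 42. For Chronic against Acute they were *Gad2* (-0.13) and *Slc32a1* (-0.068) without Acute replicate 4, *Vip* (0.0064) without Acute replicate 33 and *Calb2* (0.20) without Chronic replicate 2. The replicate block, with the numbers of the second batch as blocks, gave a log2 fold change of 0.19 for *Gad1* in Acute mice and changed no call of an adjusted p.

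None of these intervals excludes a difference of a few percent. They were widest for *Calb2* (-0.48 to 0.25 for Acute against Water) and *Pvalb* (-0.090 to 0.61).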
